A study of Homo sapiens with 6 samples.

Results

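NRF2 (gene NFE2L2), its repressor KEAP1 and 35 genes of the NRF2 target programme were followed in RNA sequencing of 2 human non-small cell lung cancer lines, HCC15 and A427. The 37 genes were taken by symbol from deposited tables of 23686 genes, and all 37 were present. Of these, 35 passed the read filter (10 reads or more in 2 or more libraries), which left 14481 genes for testing. The other two members, AKR1B10 and GPX2, are given as reads only. Each line was transfected with LGR6 siRNA 4, LGR6 siRNA 2 or a control siRNA that the labels call Tax, and was collected after 48 h in RPMI with 5% FBS. LGR6 is a receptor of the R-spondin-binding LGR family, and the study compared cells with silenced and retained LGR6. There was 1 library for each line and siRNA, so the 6 libraries hold no replicate of a condition. The labels name no genotype or allele for either line and no agent beside the siRNA and the medium, and they do not say whether the libraries of a line came from separate cultures.

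NRF2 is a transcription factor that cells keep at a low level by binding it to KEAP1, an adaptor of a CUL3 ubiquitin ligase that marks it for degradation. Oxidants and electrophiles modify cysteines of KEAP1, after which NRF2 accumulates, pairs with a small MAF protein and binds antioxidant response elements beside genes for glutathione synthesis, thioredoxin recycling, detoxification, iron storage and NADPH supply. Because NRF2 is controlled mainly as a protein, its own mRNA does not measure its activity. In non-small cell lung cancer the pathway is known for mutations of KEAP1 and NFE2L2 that leave the factor active. The deposited expression tables carry no genotype for either gene.

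The sequences below show letters of the kind that NRF2 is known to bind, as they stand near the starts of the members that hold them. Sequences are RefSeq promoter windows of 300 bases on GRCh38.p14 (250 bases before to 50 after each annotated gene start), a build other than the hg19 on which the reads were counted, and they were used for letters only. Of the 37 members, 26 matched the promoter table, with 34 windows among them. The core letters TGACNNNGC, searched on both strands, were in 11 of the 34 windows (32.4%), against 13.3% of all 35114 windows. They belonged to 10 of the 26 members: CBR1, CYP4F11, EPHX1, GCLM, GPX2, KEAP1, ME1, PGD, PIR and TXNRD1. The stricter form TGACTCAGC, of the same length with the free letters of the core fixed, was in the windows of ME1 and PIR and in 0.561% of all windows. A match describes letters only, and a window without one says nothing of sites elsewhere. The 250 bases before the start of GCLM, the modifier subunit of the enzyme that begins glutathione synthesis (chr1:93909431-93909680, minus strand), and of ME1, the cytosolic malic enzyme (chr6:83431052-83431301, minus strand), are printed 5′ to 3′ along the gene with the match in capitals. In GCLM the match lies on the opposite strand and begins 34 bases before the start, and in ME1 it lies on the gene's strand 137 bases before it. A further core match of ME1 lies after the start, outside the printed stretch.
GCLM: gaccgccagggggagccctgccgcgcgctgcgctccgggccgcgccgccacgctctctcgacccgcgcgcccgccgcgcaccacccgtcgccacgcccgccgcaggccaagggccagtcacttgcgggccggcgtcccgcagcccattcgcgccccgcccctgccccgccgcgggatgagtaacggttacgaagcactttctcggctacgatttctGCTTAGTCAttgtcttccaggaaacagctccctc
ME1: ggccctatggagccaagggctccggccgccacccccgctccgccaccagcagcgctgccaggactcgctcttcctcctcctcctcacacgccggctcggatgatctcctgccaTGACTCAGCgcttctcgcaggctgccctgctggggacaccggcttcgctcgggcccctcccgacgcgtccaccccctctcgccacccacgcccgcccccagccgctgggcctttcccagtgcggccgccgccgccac

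Shorter stretches around the match are given for KEAP1, whose own window holds the core at 2 places, and for TXNRD1, CBR1 and CYP4F11, members that passed a test with an LGR6 siRNA or between the LGR6 siRNAs below. Each stretch is written 5′ to 3′ on the strand that reads TGACNNNGC, with the 9 matching letters in capitals and 10 bases on either side. The KEAP1 stretches (chr19:10502807-10502835 and chr19:10502784-10502812) begin their match 54 and 31 bases before the start. Of the 3 TXNRD1 stretches, the first and second come from the window of one annotated start (chr12:104215670-104215698 and chr12:104215761-104215789), with matches that begin 99 and 8 bases before it. The third is from the window of another annotated start (chr12:104286920-104286948), with its match 102 bases before it. The matches of CBR1 (chr21:36069855-36069883) and CYP4F11 (chr19:15935005-15935033) begin 159 and 156 bases before the start.
KEAP1, gene strand: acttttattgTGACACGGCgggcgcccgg
KEAP1, opposite strand: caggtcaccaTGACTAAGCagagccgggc
TXNRD1, gene strand: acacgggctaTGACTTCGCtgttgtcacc
TXNRD1, opposite strand, same start: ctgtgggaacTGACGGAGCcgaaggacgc
TXNRD1, opposite strand, other start: agagtcagaaTGACAAAGCagaaatccac
CBR1, opposite strand: ccagctagccTGACTTTGCagaacccgca
CYP4F11, opposite strand: cagctcagggTGACACAGCatgggcacag

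Total reads ranged over 25546400 to 28987900 per library, and no pair of libraries was close enough to be 1 library deposited more than once (lowest chi-square per degree of freedom 57.0). LGR6 itself had 77 reads with siRNA 4, 39 with siRNA 2 and 257 with control siRNA in HCC15. In A427 it had 0, 0 and 5 reads in the same order, so silencing could not be measured at this depth in that line. Epithelial markers were present in both lines, with a summed TPM (a deposited measure per transcript length and library) of 3614 to 7902 in HCC15 and 989 to 1263 in A427. In HCC15 the sum was mainly KRT8 and KRT18. EPCAM was lower in HCC15, at 27.6 to 53.9 TPM against 403 to 457 TPM in A427. CDH1, KRT8, KRT18 and KRT19 were higher in HCC15. All 4 lung lineage markers, NKX2-1, SFTPB, SFTPC and TP63, were at 0 in HCC15, and in A427 SFTPB and SFTPC were at 0 and the 4 together at 0.04 to 0.15 TPM. Immune markers (1 of 3, CD3E, at 0 in both lines; PTPRC at 0 in HCC15) summed to 1.78 to 4.18 TPM in HCC15 and 25.4 to 32.5 TPM in A427. Endothelial markers summed to at most 0.04 TPM in HCC15 and 0.25 TPM in A427. Fibroblast markers, with DCN at 0 in both lines, summed to 5.19 to 7.80 TPM in HCC15 and 84.4 to 107 TPM in A427. The part of these marker differences in the results between lines was not tested.

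Most of the programme was higher in HCC15 than in A427, while NRF2 and KEAP1 mRNA did not pass the test and overlapped between the lines. In edgeR's quasi-likelihood test with Benjamini-Hochberg adjustment (threshold adjusted p under 0.05), 32 of the 35 tested members were higher in HCC15, 1 was lower and 2 did not pass. The lines differ widely: 76.5% of all genes tested passed, 37.2% higher and 39.3% lower in HCC15. The median log2 fold change, HCC15 over A427, was 2.01 over the members and -0.03 over all genes tested. Of the 35 members, 27 were at least 2-fold higher in HCC15, against 19.1% of all genes tested. Among the called members, 6 (AKR1C1, AKR1C2, AKR1C3, ABCC2, ABCC3 and ALDH3A1) passed the read filter through HCC15 alone and therefore had to differ. Among the 29 members that passed the filter in each line, 26 were higher, 1 lower and 2 not past the threshold, with a median of 1.48, and 12 (41.4%) were at least 4-fold higher. Of the 12418 genes that passed in each line, 37.1% were higher, 36.5% lower and 4.57% at least 4-fold higher. In CPM (read counts relative to library size, scaled by TMM), 31 members had every HCC15 library above every A427 library, against 32.7% of all genes tested. HMOX1 alone had every HCC15 library below every A427 library (35.3% of all genes), and NFE2L2, KEAP1 and TXNRD1 overlapped between lines. Leaving out any 1 library kept the count at 33. The spread in this test is how far siRNA effects differ between the lines, and it compares these lines only. In bulk libraries, fewer cells that express a gene and less RNA per cell cannot be told apart.

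NFE2L2, the transcription factor, was at 241, 155 and 142 CPM in HCC15 (siRNA 4, siRNA 2, control) and at 175, 139 and 143 CPM in A427. Its HCC15 library with siRNA 4 was the highest of the 6, and the remaining 5 overlapped between lines (log2 fold change 0.20, SE 0.11, edgeR Benjamini-Hochberg adjusted p = 0.131). KEAP1 was at 112, 82.1 and 75.8 CPM in HCC15 and at 92.9, 87.5 and 82.7 CPM in A427. Its A427 libraries lay inside the HCC15 range (log2 fold change 0.02, SE 0.11, adjusted p = 0.896 in edgeR), and the sign turned with library size alone as scaling (-0.09).

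**Figure D1:**
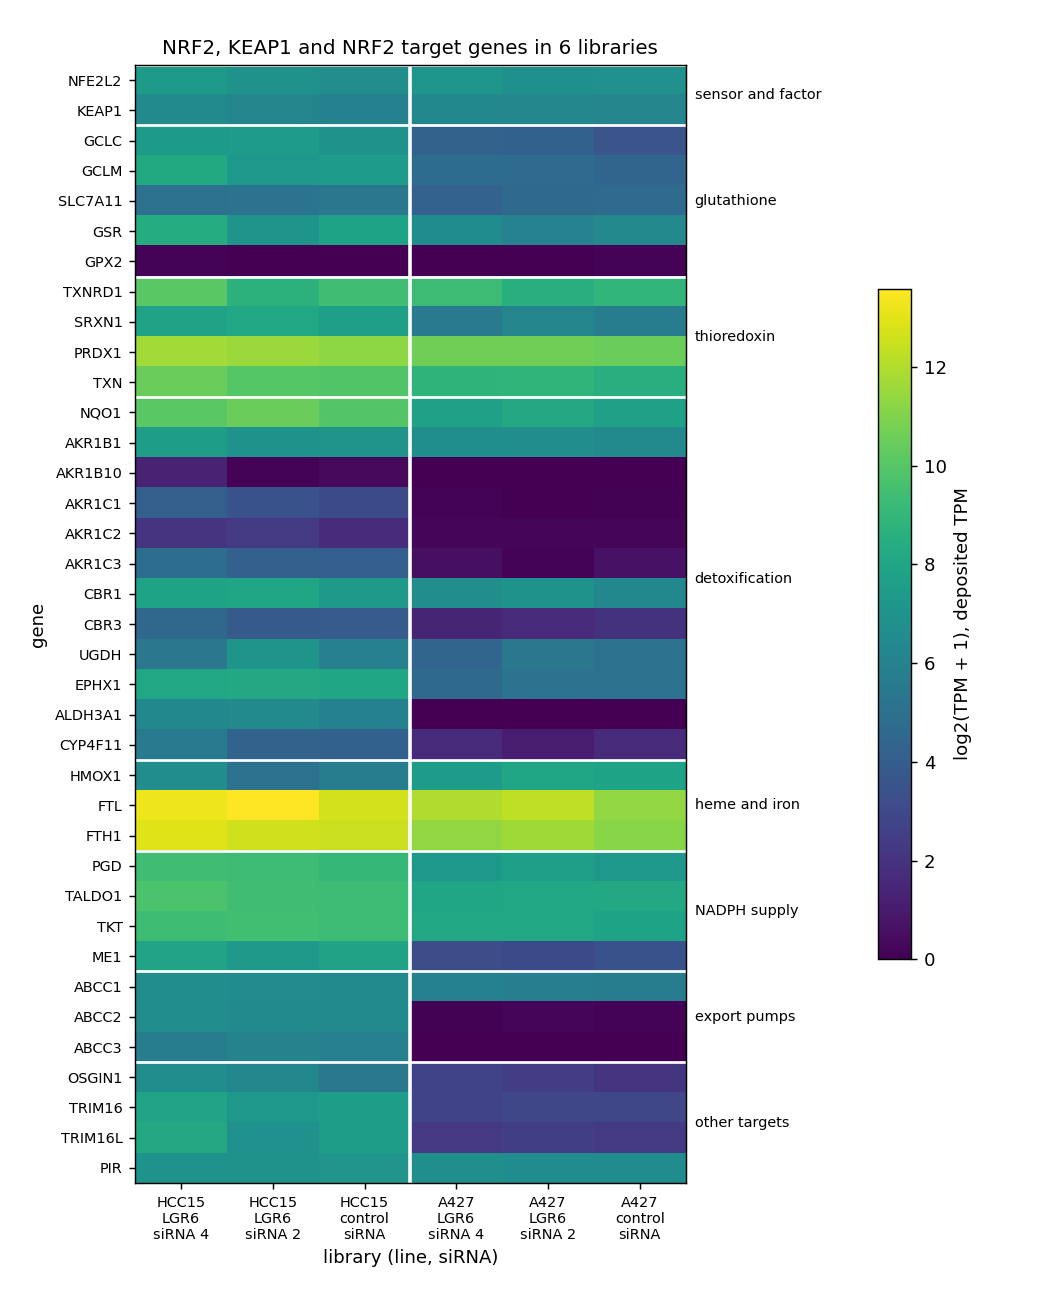
Level of each of the 37 members (rows, grouped by role) in each of the 6 libraries (columns), as log2(TPM + 1) from the deposited TPM, so that levels can be compared between genes. The HCC15 columns are brighter than the A427 columns in most rows, while NFE2L2 and KEAP1 show little contrast between the lines and FTL, FTH1 and PRDX1 hold the highest levels.

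Of the glutathione genes, all 4 tested members were higher in HCC15, against 37.2% of all genes tested, and all 4 had reads in every library. GCLC, the catalytic subunit of glutamate-cysteine ligase, was at 332, 306 and 237 CPM in HCC15 with siRNA 4, siRNA 2 and control, and at 33.2, 29.9 and 19.5 CPM in A427. The lowest HCC15 library was several-fold above the highest A427 library (log2 fold change 3.43, SE 0.11, edgeR adjusted p = 3.88e-08). Its partner subunit GCLM, whose promoter is printed above, ranged over 212 to 466 CPM in HCC15 and 28.6 to 37.7 CPM in A427 (log2 fold change 3.15). Glutathione reductase (GSR) ranged over 183 to 539 CPM in HCC15 and 89.6 to 138 CPM in A427 (1.54 on the log2 scale). The cystine transporter SLC7A11, also known as an ATF4 target, was nearer to equal, at 159 to 204 CPM in HCC15 and 82.6 to 120 CPM in A427 (0.78). GPX2, a glutathione peroxidase, had at most 1 read in any library.

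All 11 detoxifying enzymes that were tested were higher in HCC15, against 37.2% of all genes tested. ALDH3A1, AKR1C1, AKR1C2 and AKR1C3 had few or no reads in A427. They passed the read filter through HCC15 alone and therefore had to differ. ALDH3A1, an aldehyde dehydrogenase, was at 69.3, 66.0 and 51.3 CPM in HCC15 (siRNA 4, siRNA 2, control) and had 0 reads in all 3 A427 libraries. Set against a floor of 3 reads per A427 library, it was at least 448-fold higher in HCC15. The aldo-keto reductase AKR1C1, which reduces carbonyls and progesterone, had 269, 157 and 116 reads in HCC15 and 1, 0 and 1 reads in A427. The ratio of summed reads, scaled to library size, was 279.5 with a 95% counting interval of 77.0 to 2314, which covers counting error only. AKR1C3, an aldo-keto reductase acting on steroids and prostaglandins, had 411, 235 and 220 reads in HCC15 and 6, 1 and 9 reads in A427 (log2 fold change 5.78, SE 0.33). AKR1C2 had 152, 159 and 99 reads in HCC15 and 6, 7 and 3 reads in A427 (4.68 on the log2 scale, SE 0.29). The 3 AKR1C genes are close in sequence and could share reads, so the split among them is uncertain, although each was low in every A427 library. With 1 library left out, AKR1C3 ranged over 5.47 to 6.56 on the log2 scale. CYP4F11, a fatty acid hydroxylase, was at 73.7, 26.0 and 26.3 CPM in HCC15 and 2.97, 1.45 and 2.94 CPM in A427 (3.99 on the log2 scale, SE 0.26, edgeR adjusted p = 2.13e-06). NQO1, the quinone reductase often used as a readout of NRF2, ranged over 1217 to 1647 CPM in HCC15 and 248 to 325 CPM in A427 (2.38 on the log2 scale). The other tested enzymes, EPHX1 (3.25), CBR3 (2.94), UGDH (1.26), CBR1 (1.16) and AKR1B1 (0.65 on the log2 scale), were higher as well. AKR1B10, a further aldo-keto reductase, had 28, 2 and 5 reads in HCC15 and 0 in each A427 library, too few for a fold.

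The 3 export pumps of the ABCC family move glutathione and glucuronide conjugates out of the cell. All 3 were higher in HCC15, against 37.2% of all genes tested. Of these, ABCC2 and ABCC3 had at most 7 reads in any A427 library. Both passed the read filter through HCC15 alone and therefore had to differ. ABCC2 had 6868, 5745 and 5779 reads in HCC15 and 4, 7 and 7 reads in A427 (log2 fold change 10.01, SE 0.20). ABCC3 had 3457, 4398 and 3898 reads in HCC15 and 1, 1 and 0 reads in A427, a ratio of 6062 with a 95% counting interval of 1678 to 50058. ABCC1 was well expressed in both, at 285 to 353 CPM in HCC15 and 156 to 187 CPM in A427 (0.86 on the log2 scale).

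All 4 members grouped under NADPH supply and all 4 remaining targets were higher in HCC15 too, against 37.2% of all genes tested. ME1, whose promoter with the stricter form is printed above, was at 443, 253 and 383 CPM in HCC15 (siRNA 4, siRNA 2, control) and 13.1, 11.4 and 15.7 CPM in A427 (log2 fold change 4.72, SE 0.15, edgeR adjusted p = 3.32e-08). The pentose phosphate enzymes PGD, TALDO1 and TKT were higher in HCC15 by 2.01, 1.48 and 1.45 on the log2 scale. OSGIN1, a stress-inducible growth inhibitor, was at 95.9, 62.2 and 38.6 CPM in HCC15 and 4.64, 3.77 and 2.67 CPM in A427 (4.11 on the log2 scale, SE 0.15, edgeR adjusted p = 7.64e-08). The tripartite-motif gene TRIM16 was at 362, 196 and 263 CPM in HCC15 and 7.21, 8.12 and 8.49 CPM in A427 (5.06, SE 0.20, edgeR adjusted p = 1.23e-07). Its shortened copy TRIM16L was at 284, 101 and 177 CPM in HCC15 and 3.23, 3.96 and 3.35 CPM in A427 (5.63, SE 0.30, edgeR adjusted p = 5.82e-07). Reads could be split between these near-identical copies, so neither value stands alone. PIR, an iron-binding nuclear protein whose window also holds the stricter form, was at 78.6 to 93.2 CPM in HCC15 and 59.8 to 68.9 CPM in A427 (0.43).

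**Figure D2:**
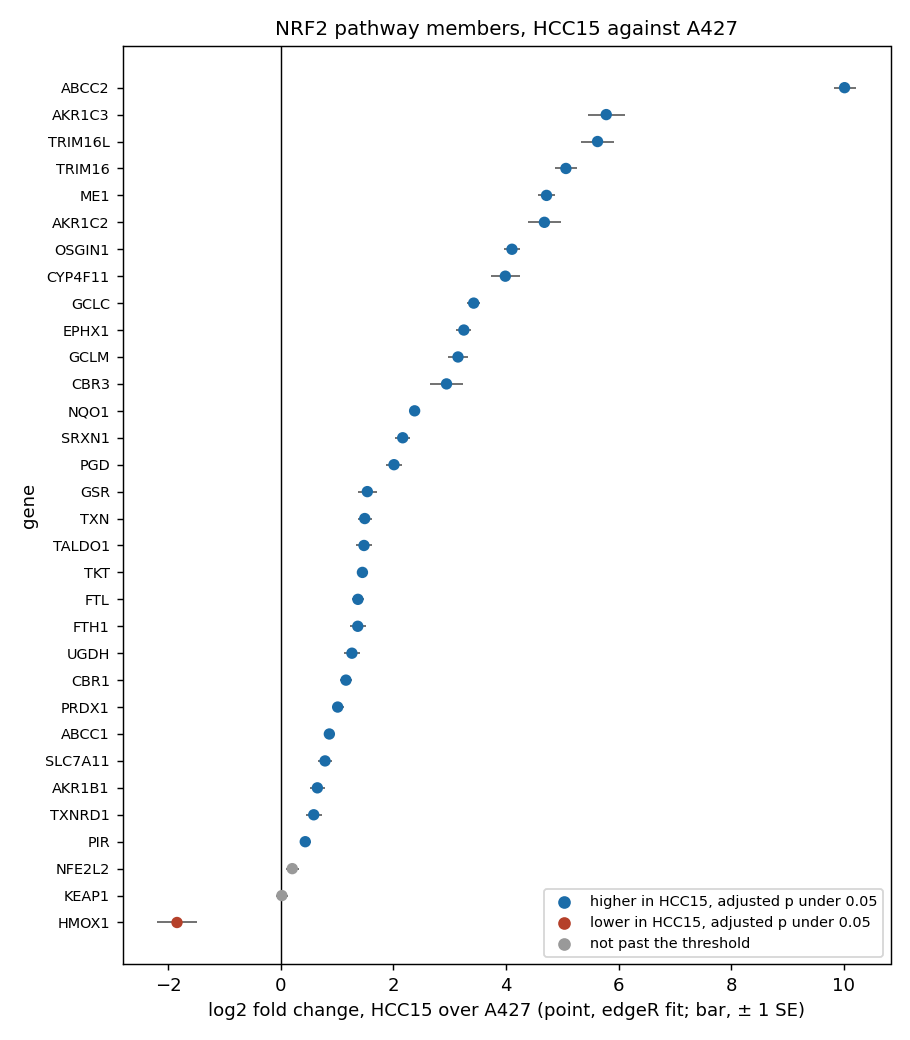
Log2 fold change, HCC15 over A427, with SE from edgeR's fit for the tested members, ordered by size and coloured by whether they passed the threshold. ALDH3A1, ABCC3 and AKR1C1 are left out because A427 held 0 to 2 reads of them in all; HMOX1 at -1.85 is the only member below 0 that passed, and NFE2L2 (0.20) and KEAP1 (0.02) sit near 0 and did not pass.

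The thioredoxin branch and iron storage held the 3 most abundant members by median TPM in each line. Of the 7 members of these roles, 6 were higher in HCC15, against 37.2% of all genes tested. On the per-length scale of TPM, ferritin light chain (FTL) ranged over 6368 to 12314 TPM in HCC15 and 2708 to 4998 TPM in A427, the highest member of each line. Ferritin heavy chain (FTH1) came next in each line by median, at 5698 to 7729 TPM in HCC15 and 2304 to 3181 TPM in A427, and the lowest FTL value of each line lay within the FTH1 range of that line. Peroxiredoxin 1 (PRDX1) followed in each line, at 2496 to 3346 TPM in HCC15 and 1455 to 1607 TPM in A427. FTL and FTH1 were higher in HCC15 by the same 1.37 on the log2 scale, and PRDX1 by 1.01. Both ferritin genes have many processed pseudogenes, so their reads are uncertain in part. Sulfiredoxin (SRXN1), thioredoxin (TXN) and thioredoxin reductase (TXNRD1) were higher by 2.16, 1.49 and 0.58. TXNRD1 overlapped between the lines, at 770 to 2274 CPM in HCC15 and 681 to 1167 CPM in A427. HMOX1, the heme oxygenase that is a target of both NRF2 and its competitor BACH1, was the exception, and it is singled out after its values were seen. It was at 74.4, 23.0 and 36.8 CPM in HCC15 and 116, 164 and 156 CPM in A427, with all A427 libraries above all HCC15 libraries (log2 fold change -1.85, SE 0.35, edgeR adjusted p = 0.00118). With 1 library left out, HMOX1 ranged over -2.46 to -1.35 on the log2 scale.

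Of 26 further NRF2 pathway genes, which comprise regulators and partners as well as more targets, 23 were tested, and 15 were higher and 5 lower in HCC15 (87% called, against 76.5% of all genes tested). Of the 15, PTGR1 and NR0B1 passed the read filter through HCC15 alone and had to differ. Among the 21 that passed it in each line, 13 were higher (61.9%) and 5 lower (23.8%). Of all genes that passed it in each line, 37.1% were higher and 36.5% lower. PTGR1, a prostaglandin reductase, had 5701, 4721 and 3311 reads in HCC15 (siRNA 4, siRNA 2, control) and 8, 2 and 7 reads in A427. The microsomal glutathione transferase MGST1 was higher by 6.01 and the porphyrin transporter ABCB6 by 5.97 on the log2 scale. NR0B1, an orphan nuclear receptor, had reads in every HCC15 library and 0 in A427, at least 58.2-fold against the floor of 3 reads per library.

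Against control siRNA, 6 of the 35 tested members were higher with LGR6 siRNA 4 and none was lower in the edgeR fit over both lines. The 6 were NFE2L2 itself, the glutathione synthesis gene GCLC, the carbonyl reducers AKR1C1 and CBR1, ferritin light chain FTL and OSGIN1. The share called was 17.1% of the members, and 12.5% of all genes tested were called (4.58% higher, 7.95% lower). The members' median log2 fold change was 0.39, with 31 of 35 above 0, while the median of all genes tested was -0.01, with 49.4% above 0. Without the siRNA 4 library of HCC15 the members' median was 0.15, with 23 of 35 above 0, and without the HCC15 control it was 0.21, with 25 above 0. With limma on log2(TPM + 1) it was 0.26.

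NFE2L2 was at 241 CPM with siRNA 4 against 142 CPM with control in HCC15, and at 175 against 143 CPM in A427. It was higher in both lines, by more in HCC15 (log2 fold change 0.52, SE 0.14, edgeR adjusted p = 0.0430). OSGIN1 was at 95.9 CPM with siRNA 4 against 38.6 CPM with control in HCC15, and at 4.64 against 2.67 CPM in A427 (1.14, SE 0.17, edgeR adjusted p = 0.00572). FTL was at 3543 against 2190.4 CPM in HCC15 and at 1291 against 873 CPM in A427 (0.63, SE 0.12, edgeR adjusted p = 0.0140). Both genes were higher with siRNA 4 in each line. GCLC was at 332 against 237 CPM in HCC15 and at 33.2 against 19.5 CPM in A427 (0.61, SE 0.12, edgeR adjusted p = 0.0174). CBR1, a carbonyl reductase whose promoter stretch is printed above, was at 131 against 87.2 CPM in HCC15 and at 51.9 against 40.7 CPM in A427 (0.48, SE 0.13, edgeR adjusted p = 0.0473). AKR1C1 had 269 reads with siRNA 4 against 116 with control in HCC15, and 1 read in each of the matching A427 libraries (1.23, SE 0.27, edgeR adjusted p = 0.0152). Its call therefore rests on HCC15.

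By role, the members that did not pass with siRNA 4 included the inhibitor, the thioredoxin branch and NADPH supply. KEAP1 was at 0.37 (SE 0.14, edgeR adjusted p = 0.119) on the log2 scale. All 4 thioredoxin members and all 4 members grouped under NADPH supply had positive values without passing, TXNRD1 the nearest at 0.60 (SE 0.18, edgeR adjusted p = 0.0632). CYP4F11 was at 1.01 (SE 0.30, adjusted p = 0.0613) and GCLM at 0.64 (SE 0.21, adjusted p = 0.0842), also by edgeR. The pair with the lowest values were UGDH, the enzyme that makes UDP-glucuronate, at -0.58 (SE 0.18, edgeR adjusted p = 0.0708), and SLC7A11 at -0.37 (SE 0.15, edgeR adjusted p = 0.141). NQO1 was at 0.12 (SE 0.12) and HMOX1 at 0.39 (SE 0.41).

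These calls depended on single libraries, since each siRNA had 1 library per line. None of them held without the HCC15 control or the HCC15 siRNA 4 library, where far fewer of all genes passed too. Most were also lost without the A427 control, again with fewer of all genes called. The members' median was 0.42 without the A427 control, 0.36 without either siRNA 2 library and 0.55 without A427 siRNA 4. With log2(TPM + 1) in limma, AKR1C1 (adjusted p = 0.238) and NFE2L2 (adjusted p = 0.0521) no longer passed. With no filter on low counts, CBR1 (edgeR adjusted p = 0.0558) did not pass, and NFE2L2 lay just above the threshold. DESeq2 called 9 of 33, of which UGDH was the lower one, and 16.6% of all genes it tested. The summed level of the 5 epithelial markers, none at 0, moved with siRNA 4: it was lowest there in each line, at 3614 TPM in HCC15 and 989 TPM in A427, against up to 7902 and 1263 TPM in other libraries of those lines. Its part in the members' values was not tested.

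Of the further pathway genes, 4 of 23 (17.4%) were higher with siRNA 4 and none was lower, against 12.5% of all genes tested. BACH1, a repressor that competes with NRF2 for its sites, was at 129.8 CPM with siRNA 4 against 60.3 CPM with control in HCC15, and at 60.0 against 36.3 CPM in A427 (log2 fold change 0.92, SE 0.14, edgeR adjusted p = 0.00589). SQSTM1 (p62), which binds KEAP1 and diverts it to autophagy, was at 1995 against 1128 CPM in HCC15 and at 889.8 against 682 CPM in A427 (0.61, SE 0.14, edgeR adjusted p = 0.0260). NR0B1 and PTGR1 were the others. NR0B1 had 543 reads with siRNA 4 against 175 with control in HCC15, and 0 in A427 (1.67, edgeR adjusted p = 0.0158). PTGR1 had 5701 against 3311 reads in HCC15 and 8 against 7 in A427 (0.79, edgeR adjusted p = 0.0374). Both calls thus compare 1 HCC15 library with 1 HCC15 control, and both were lost with limma on log2(TPM + 1), at adjusted p of 0.204 for NR0B1 and 0.244 for PTGR1. That of PTGR1 was also lost with DESeq2 (adjusted p = 0.621), and its value was -0.14 when the HCC15 control was left out. Leaving out either that library or the siRNA 4 library of HCC15 lost all 4 of these calls, at edgeR adjusted p of 0.146 and 0.0849 for BACH1. Leaving out the A427 control lost those of SQSTM1 (0.136), NR0B1 (0.0567) and PTGR1 (0.0841).

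With LGR6 siRNA 2, 2 of the 35 tested members were higher than with control siRNA, FTL and CBR1, and none was lower in edgeR. The share was 5.71% of the members, and 7.62% of all genes tested were called (2.96% higher, 4.66% lower), so the count is near the background. FTL was at 3937 CPM with siRNA 2 against 2190.4 CPM with control in HCC15, and at 1575 against 873 CPM in A427 (log2 fold change 0.85, SE 0.12, edgeR adjusted p = 0.00826). CBR1 was at 128 against 87.2 CPM in HCC15 and at 62.6 against 40.7 CPM in A427 (0.59, SE 0.13, edgeR adjusted p = 0.0319). Both were higher in each line. The members' median was 0.07, with 20 of 35 above 0, and its sign depended on 1 library. Without the siRNA 2 library of A427 it was -0.04, with 16 above 0 and 19 below, and without that of HCC15 it was 0.23, with 27 above 0. It was 0.15 without the A427 control, 0.01 without the HCC15 control and 0.12 with limma on log2(TPM + 1).

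NFE2L2 did not pass with siRNA 2, at 155 CPM against 142 CPM with control in HCC15 and at 139 against 143 CPM in A427 (0.04, SE 0.14, edgeR adjusted p = 0.909). KEAP1 was at 0.10 (SE 0.14, edgeR adjusted p = 0.714). GCLC at 0.48, UGDH at 0.68 and OSGIN1 at 0.63 on the log2 scale missed the threshold, with edgeR adjusted p of 0.0556, 0.0561 and 0.0671. The lowest values were those of the reductases GSR (-0.69) and TXNRD1 (-0.57) and the malic enzyme ME1 (-0.54), with edgeR adjusted p of 0.0745, 0.0924 and 0.0803. Of the further pathway genes 1 of 23 (4.35%) passed, against 7.62% of all genes tested: BACH1 was at 127 CPM with siRNA 2 against 60.3 CPM with control in HCC15, and at 59.2 against 36.3 CPM in A427 (0.89, SE 0.14, edgeR adjusted p = 0.00994). The comparison of each siRNA with control uses the same control libraries, so the values of FTL, CBR1 and BACH1 with either siRNA are not independent of each other. FTL and CBR1 both lost their calls without the HCC15 or the A427 control, where far fewer of all genes passed too. CBR1 also lost its call without the siRNA 2 library of either line. The members' median was 0.06 without the siRNA 4 library of A427. DESeq2 called 7 of 33 members, 6 higher and GSR lower, and 12.3% of all genes it tested. BACH1 lost its call without the HCC15 control (adjusted p = 0.209), the A427 control (0.0504) or HCC15 siRNA 2 (0.0693).

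**Figure D3:**
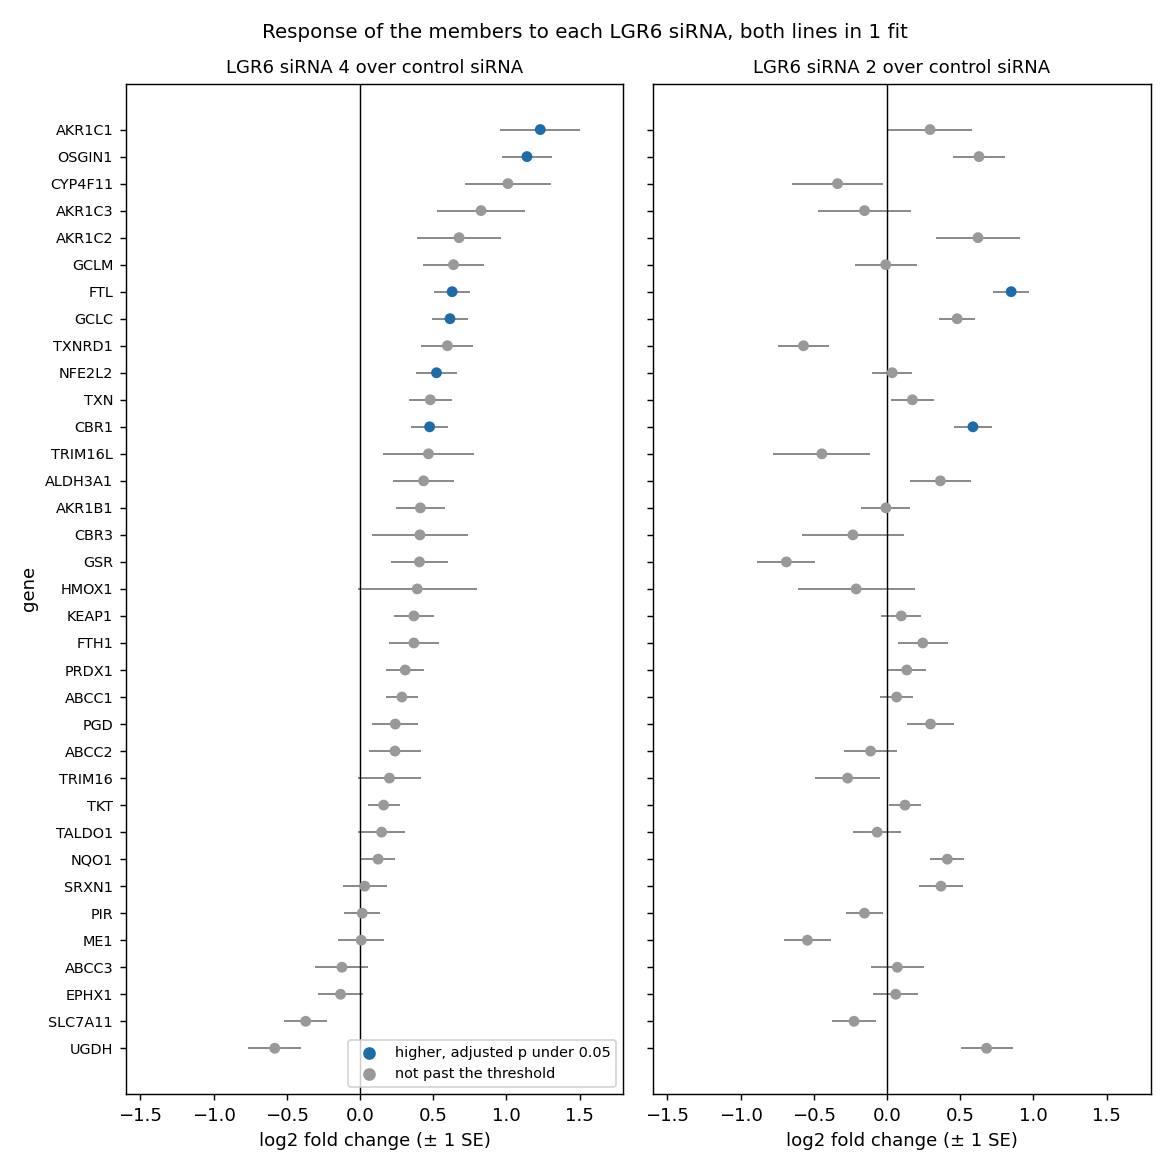
Log2 fold change over control siRNA with SE from edgeR's fit of line plus siRNA, for the tested members with LGR6 siRNA 4 and with LGR6 siRNA 2. FTL and CBR1 passed the threshold with both, NFE2L2, GCLC, OSGIN1 and AKR1C1 passed with siRNA 4, and TXNRD1, GSR and UGDH lie on opposite sides of 0; both use the same control libraries.

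Set directly against each other, the siRNAs differed in 6 of the 35 members, 5 higher and 1 lower with siRNA 4. The share was 17.1% of the members, and 16.5% of all genes tested differed (7.7% higher, 8.84% lower), so the members stood at the background. The 2 reductases that regenerate reduced thioredoxin and glutathione were among them. TXNRD1 was at 2274 CPM with siRNA 4 against 770.4 CPM with siRNA 2 in HCC15, and at 1167 against 681 CPM in A427 (log2 fold change 1.17, SE 0.18, edgeR adjusted p = 0.00510). GSR was at 539 against 183 CPM in HCC15 and at 138 against 89.6 CPM in A427 (1.09, SE 0.20, edgeR adjusted p = 0.00987). In each line the control library lay between the siRNA libraries for both genes. UGDH ran the other way, at 65.8 CPM with siRNA 4 against 189 CPM with siRNA 2 in HCC15 and at 30.0 against 58.5 CPM in A427 (-1.26, SE 0.18, edgeR adjusted p = 0.00383), again with control between them. CYP4F11 was at 73.7 against 26.0 CPM in HCC15 and at 2.97 against 1.45 CPM in A427 (1.35, SE 0.30, edgeR adjusted p = 0.0189). NFE2L2 (0.49, SE 0.14, edgeR adjusted p = 0.0457) and AKR1C1 (0.94, SE 0.26, edgeR adjusted p = 0.0338) were the others, at 241 against 155 CPM and 269 against 157 reads in HCC15. In A427 NFE2L2 was at 175 against 139 CPM and AKR1C1 at 1 against 0 reads, so the call of AKR1C1 compares 1 HCC15 library with another.

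Of the further pathway genes, 2 of 23 were higher with siRNA 4 than with siRNA 2 and 1 was lower, a share of 13% called against 16.5% of all genes tested. The kinase gene GSK3B, which marks NRF2 for KEAP1-independent degradation, was at 82.0 against 52.6 CPM in HCC15 and 250.3 against 179 CPM in A427 (0.56, SE 0.12, edgeR adjusted p = 0.0159). BTRC, the ubiquitin ligase adaptor that reads that mark, was at 75.7 against 105 CPM in HCC15 and 36.0 against 51.8 CPM in A427 (-0.50, SE 0.13, edgeR adjusted p = 0.0371). Biliverdin reductase B (BLVRB) was at 83.0 against 50.5 CPM in HCC15 and 53.7 against 41.7 CPM in A427 (0.55, SE 0.15, edgeR adjusted p = 0.0376). These calls were unstable: of the 6 libraries left out in turn, BTRC lost its call with all 6, BLVRB with 5 and GSK3B with 4, and BTRC also lost it with no filter on low counts (edgeR adjusted p = 0.0510). Among the members, AKR1C1 and NFE2L2 lost their calls with 5 of the 6, either control among them, CYP4F11 with 3, GSR with 2, and TXNRD1 and UGDH with 1, the siRNA 4 library of HCC15. No call of a member held without the siRNA 4 library of HCC15. The members' median was 0.22, and it was 0.02 without that library, 0.08 without HCC15 siRNA 2 and 0.40 without A427 siRNA 4. Fewer of all genes tested passed without either of these HCC15 libraries as well. This comparison uses the same libraries as those with control. With limma on log2(TPM + 1), CYP4F11 (adjusted p = 0.0757), AKR1C1 (0.332) and NFE2L2 (0.0804) did not pass, and 2 members were called higher and 3 lower, with 14.1% of all genes called. DESeq2 did not call AKR1C1 (adjusted p = 0.316). NFE2L2 was at an edgeR adjusted p of 0.0526 with RLE size factors and 0.0540 with no filter.

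**Figure D4:**
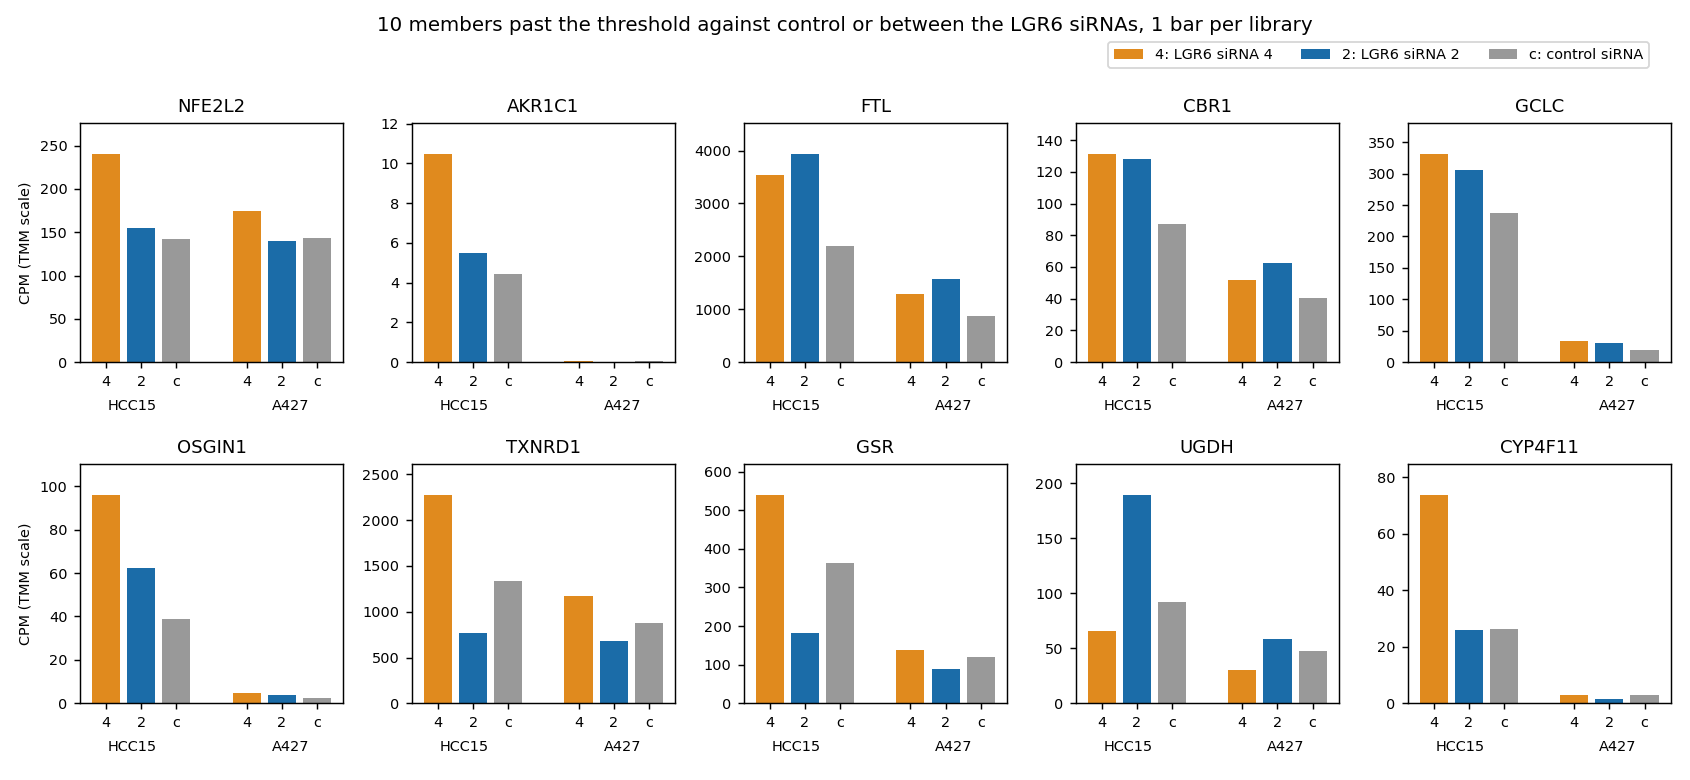
CPM on the TMM scale in each library, 1 bar per library, for the 10 members that passed the threshold with siRNA 4, with siRNA 2 or between the siRNAs, with the HCC15 bars left of the A427 bars in each panel. FTL, CBR1, GCLC and OSGIN1 stand above control with either siRNA in both lines, while TXNRD1 and GSR have control between the siRNAs and UGDH has it between them in the opposite order.

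Library by library, the HCC15 siRNA 4 library held more members above its own control than the other LGR6 siRNA libraries did. With 0.5 CPM added, 14 of the 35 tested members (40%) were at least 1.5-fold above the HCC15 control in it and 0 were as far below, against 7.26% and 13.4% of all genes tested. These were CYP4F11 (2.77-fold), OSGIN1, AKR1C1, HMOX1, AKR1C3, GCLM, TXNRD1, NFE2L2, CBR3, FTL, TRIM16L, TXN, AKR1C2 and CBR1. The HCC15 siRNA 2 library had 3 above (UGDH, FTL and OSGIN1) and 5 below (GSR, TXNRD1, TRIM16L, HMOX1 and ME1), against 6.9% and 8.07% of all genes. In A427, siRNA 4 had 2 above (GCLC and OSGIN1) and 1 below (UGDH), against 4.74% and 8.63%. With siRNA 2, A427 had 3 above (FTL, CBR1 and GCLC) and 2 below (CYP4F11 and AKR1C3), against 4.34% and 8.35%. These are counts within single libraries, with no test, and the same control serves both libraries of a line.

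Taking both LGR6 siRNAs as 1 arm over both lines, no member passed (0 of 35 in edgeR, with 0% of all genes called). The arm is defined by the siRNAs, since silencing of LGR6 could not be measured in A427. At an unadjusted p under 0.05 there were 5 members, all with positive values, and 10.4% of all genes tested. The members' median was 0.22, with 28 of 35 above 0, and it was 0.14 without the siRNA 4 library of HCC15. Without a line's control, the fit holds the response of the other line alone. That median was 0.13 for A427, without the HCC15 control, and 0.36 for HCC15, without the A427 control. The values of FTL (0.74, SE 0.18), CBR1 (0.53, SE 0.14), GCLC (0.56, SE 0.14) and OSGIN1 (0.86, SE 0.24) had edgeR adjusted p of 0.259, 0.299, 0.288 and 0.324. With siRNA number entered as a replicate block, these 4 genes passed, at edgeR adjusted p of 0.00766 for FTL, 0.0268 for CBR1, 0.0224 for GCLC and 0.0138 for OSGIN1. That fit called 8.96% of all genes tested, so 4 of 35 members is near its background. DESeq2 called 3 members, FTL, CBR1 and GCLC, and 2.9% of all genes. NFE2L2 was at 0.30 (SE 0.22, edgeR adjusted p = 0.697) and KEAP1 at 0.24 (SE 0.17, edgeR adjusted p = 0.683).

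Within a line, where 2 LGR6 siRNA libraries faced 1 control, no member passed in either (edgeR, 0% of all genes called). In HCC15 the members' median was 0.33, with 30 of 35 above 0 and 1 (OSGIN1, 1.03, SE 0.36) at an unadjusted p under 0.05, against 3.69% of all genes. The median rested on 1 library: it was 0.06, with 23 above 0, without HCC15 siRNA 4, and 0.50, with 31 above 0, without HCC15 siRNA 2. In A427 the median was 0.12, with 21 of 35 above 0 and 2 at an unadjusted p under 0.05, against 2.69% of all genes. Those were GCLC (0.69, SE 0.24) and ABCC3, whose A427 libraries held 0 or 1 reads. For the response of HCC15 minus that of A427, no member passed, and 1, ABCC3 again, was at an unadjusted p under 0.05, against 0.539% of all genes. For NFE2L2 that difference was 0.34 (SE 0.49), so a difference between the lines in its response was not detectable with these libraries. DESeq2, limma and the blocked fit also called 0 members in these comparisons.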

How the data were processed

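RNA was sequenced from 6 libraries, 1 for each of 3 siRNAs in each of 2 lines. The submitters' processing notes name FastQC 0.11.1, STAR 2.5.3a (an aligner), RSEM 1.3.3 (a quantifier) and the build hg19, and the annotation behind the counts was not given in those notes. The authors deposited expected counts per gene, estimates that need not be whole (5.75% to 6.29% of values per library were not), and TPM.

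Expected counts were rounded and scaled by TMM. Genes with 10 reads or more in 2 or more libraries (14481 of 23686) were tested in edgeR 4.0.16 (glmQLFit without the legacy setting, glmQLFTest; R 4.3.3) with Benjamini-Hochberg adjustment over all of them. Line plus siRNA (2 residual degrees of freedom) gave the comparisons between lines and between siRNAs, line plus arm (3) the comparison of both LGR6 siRNAs with control, and line by arm (2) the responses within lines and their difference. CPM are on the TMM scale. The deposited TPM gave levels between genes. The labels do not say that libraries came from separate cultures, so p-values measure only the spread between these libraries, which may be technical.

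Alternatives were RLE size factors, library size alone, no filter, DESeq2 1.42.0, limma 3.58.1 on log2(TPM + 1) and log2(TPM + 0.1), each library left out, and the siRNA number as a block. Per the labels, an equal number means an equal reagent, which pairs the libraries across lines; within a line the block leaves 1 degree of freedom. Each fit was checked on counts simulated with 200 changed genes, with the same change in every affected library. The check required only that median estimates lay near the simulated size, and p-values were not checked. Counting intervals are exact (95%), floors are 3 reads per library, and both cover counting error only. Members and lists were chosen with earlier results of these data known. Members past the threshold are named with values in every library, up to 12 per comparison by size of change, and further pathway genes up to 4 per comparison. Promoters are from RefSeq on GRCh38.p14; a comparison of protein sequences was planned and not done, and protein sequences are not used here.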

Additional observations from a re-analysis of the deposited data

How the results depend on the processing

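The count of members past the threshold between HCC15 and A427 stayed at 33 in every left-out library, and within 1.5 times under the other settings. With siRNA 2, where 2 members passed in edgeR, DESeq2 called 7, and leaving out 1 library gave 0 to 8. With siRNA 4, where 6 passed, leaving out 1 library gave 0 to 12, and for siRNA 4 against siRNA 2, also 6, it gave 0 to 14. For both LGR6 siRNAs together, where 0 passed, DESeq2 called 3 and the siRNA number as a replicate block gave 4; the block changed no other call. The cause of these differences was not tested, except that a left-out library leaves 1 fewer residual degree of freedom and compares a lone sample that is assumed to vary like the others.

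Signs turned for few of the values named. KEAP1 between the lines was at -0.085 with library size alone, at -0.077 with limma on log2(TPM + 1) and at -0.078 on log2(TPM + 0.1), and ranged over -0.11 to 0.12 with 1 library left out. Library size alone moved the median of all genes between the lines by -0.10 on the log2 scale. With 1 library left out, NFE2L2 with siRNA 2 ranged over -0.10 to 0.23, CYP4F11 with siRNA 2 over -1.20 to 0.091, AKR1C1 with siRNA 4 over -0.36 to 1.27, and PTGR1 with siRNA 4 over -0.14 to 0.99. AKR1C1 and PTGR1 rest on HCC15, since A427 held almost no reads of either. Depth limits AKR1B10, GPX2 and LGR6 in A427, which had too few reads for a test or a fold. With 1 library per line and siRNA, differences between the lines in a response were not detectable.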
